A study of Mus musculus with 9 samples.

Results

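The genes described here encode the subunits of the proteasome, together with a few chaperones that carry proteasome symbols. Members were taken as all columns of the deposited expression table whose symbol is Psma, Psmb, Psmc or Psmd followed by a number, which gave 38 of 31052 genes. They comprise 7 genes of the 20S alpha ring and 7 of the constitutive 20S beta ring. The 19S particle is represented by 6 ATPases, 11 non-ATPase subunits and 3 chaperones of its assembly. The other 4 encode core subunits used in cells exposed to interferon (Psmb8, Psmb9 and Psmb10) or in the thymus (Psmb11), grouped here as tissue-restricted.

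The proteasome is the main protease of the cytosol and nucleus and degrades proteins that carry ubiquitin chains. Its barrel-shaped 20S core holds the proteolytic sites inside a pair of beta rings, alpha rings close the barrel's entrances, and the 19S particle binds the ubiquitin chain, removes it and threads the unfolded substrate into the core. In neurons proteasome activity is known to be needed for synaptic plasticity and for memory, and the subunits are assembled in fixed proportions.

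Nuclear RNA of hippocampal pyramidal cells, the excitatory principal neurons of the hippocampus, had been measured in 9 libraries from mice of the genotype WT. Cells were imaged in vivo during spatial navigation and classed as place cells, active only in certain parts of an environment, or as silent cells, the classes that the titles name. Their nuclei were then phototagged, collected, and made into libraries with a kit for messenger RNA from small inputs (SMART-Seq mRNA LP). There were 5 place and 4 silent libraries. Neither age nor sex is stated for either group, and both carry the same tissue, cell type and genotype. The titles name mice, but the labels do not say whether each library is a separate animal or how many nuclei were pooled, so p-values measure only the spread between these libraries. A lower level in such material can come from fewer contributing cells of a type or from less RNA per cell, and these cannot be told apart.

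Levels are given in RPM, which are reads recovered from the deposited values per 1000000 reads of a library. Depth, in units of 1000000 recovered reads, lay between 14.1 and 22.4, and between 14176 (silent replicate 1) and 20990 (place replicate 2) genes were detected. Camk2a, a kinase of excitatory neurons, was at 915 to 1267 RPM in place and 803 to 1419 RPM in silent libraries, and CA1 pyramidal markers summed to 435 to 1012 and 764 to 1029 RPM. Libraries also held RNA of other cell types. Oligodendrocyte markers summed to 1375, 1996 and 3198 RPM in place replicates 1 to 3 and to 120 to 538 RPM in the other libraries. Astrocyte markers reached 2135 RPM in place replicate 3, interneuron markers 766 RPM in silent replicate 3, and microglial markers 435 RPM in silent replicate 4. The Y-linked gene Eif2s3y was at 352 to 782 RPM in all silent libraries, at 687 RPM in place replicate 1 and at 0 in place replicates 2 to 5, so that sex and class cannot be told apart in the comparison of those 4 libraries with the silent ones.

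No tested proteasome gene passed the adjusted threshold for a difference between place and silent libraries. In a limma fit of log2(RPM + 1) over 14142 genes with at least 1 RPM in at least 4 libraries, 0 genes had a Benjamini-Hochberg adjusted p under 0.05 (0%, smallest adjusted p = 0.649), and 773 genes (5.47%) had an unadjusted p under 0.05. Of the 38 members 35 passed the filter on low values, and Psmb8, Psmb11 and Psmd10 did not. Among the 35 members 0 were called (smallest adjusted p = 0.893), and 1 member, Psmd12, had an unadjusted p under 0.05, lower in place. That is 2.86% of the tested members, against 1.32% of all genes tested in that direction. Limma-voom on the recovered reads also called 0 genes, with 797 genes and 1 member at an unadjusted p under 0.05.

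The fitted difference, place minus silent, was negative in 23 of the 35 tested members (65.7%) and positive in 12, with a median of -0.11 on the log2 scale. Over all genes tested 42.7% were negative and the median was 0.13. With the number of genes detected per library as a covariate the median over all genes moved to -0.04 and that of the members to -0.21. Without silent replicate 1, the library with the fewest genes detected, the medians were 0.05 and -0.28. Genes detected numbered 16613 to 20990 in place and 14176 to 17899 in silent libraries, and their part in the result was not tested.

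Summed over all 38 members, the level was 3582, 2890, 2772, 3864 and 2962 RPM in the place libraries and 3628, 3627, 3508 and 4265 RPM in the silent libraries. The groups overlapped, since place replicates 1 and 4 lay inside the silent range, while place replicates 2, 3 and 5 were below every silent library. Place replicate 1, the place library with Eif2s3y, was within the silent range. Mean levels were 3214 ± 480 RPM (SD, n = 5) and 3757 ± 344 RPM (SD, n = 4). Proteasome genes thus took 0.277% to 0.427% of a library's reads. Place replicates 2 and 3, at the low end, were also the libraries with the highest oligodendrocyte marker sums, but place replicate 5, also below every silent library, had 190 RPM of those markers, and place replicate 1, at 1375 RPM, was not low. The part of other cell types in these sums was not tested.

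**Figure D1:**
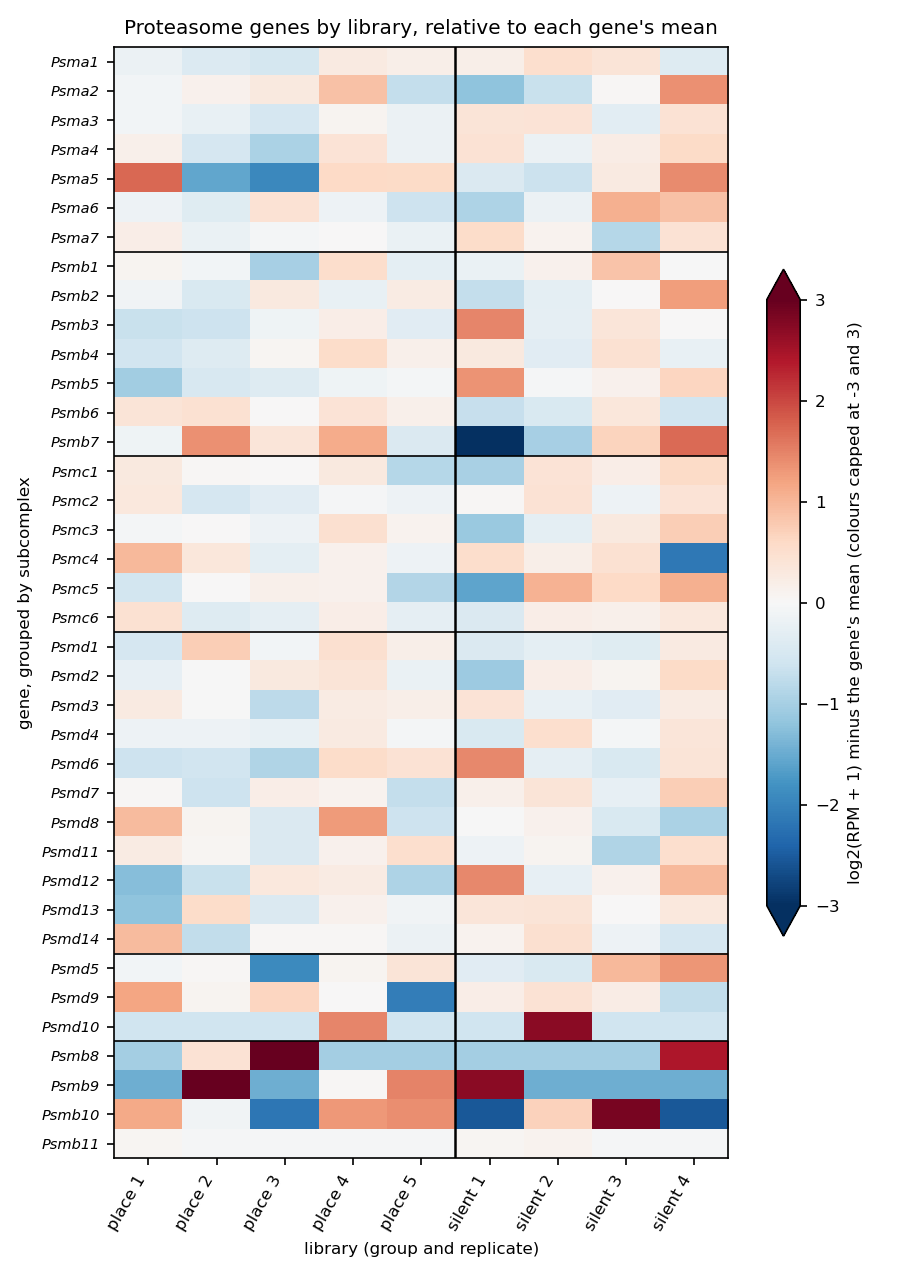
Level of each of the 38 proteasome genes in each library, as log2(RPM + 1) minus the gene's mean over the 9 libraries, with the colours capped at both ends, genes grouped by subcomplex (black lines) and place libraries left of the vertical line. Single libraries stand out gene by gene, and Psmb8, Psmb9, Psmb10 and Psmd10 alternate between reads and no reads.

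The share of each subcomplex in the proteasome reads was narrowest in range for the alpha ring among the 20S and 19S groups. Alpha ring genes made up 26% to 31.1% of the proteasome reads, beta ring genes 9.35% to 15.3%, ATPases 17.1% to 28.2% and non-ATPase subunits 25% to 37.3%. Silent replicate 1 had the highest share of non-ATPase subunits (37.3%) and the lowest of ATPases (17.1%). The ratio of the summed 20S rings to the summed 19S subunits was 0.708 ± 0.0464 (SD, n = 5) in the place group and 0.774 ± 0.0829 (SD, n = 4) in the silent group, and the ratio of the alpha to the beta ring was 2.36 ± 0.347 and 2.5 ± 0.537. Both differences were smaller than the SD within the silent group, and that of the 20S to 19S ratio was larger than the SD within the place group. The coefficient of variation over the 9 libraries was 14.2% for the sum of all members, 18.4% for the alpha ring, 19% for the beta ring, 19.9% for the ATPases and 16.6% for the non-ATPase subunits. For the 32 members with reads in every library it was 32.9% at the median, from 22.4% in Psmd4 to 78.5% in Psma5. The median was 42.2% over the 5092 genes with reads in every library and a mean level in the same range, 36.8 to 241 RPM.

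No library was high or low in every gene. Silent replicate 4 had the highest level of 10 of these 32 members, and silent replicate 1 the highest of 6 and the lowest of 10. Place replicate 3 had the lowest level of 8 members and the highest of 0.

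**Figure D2:**
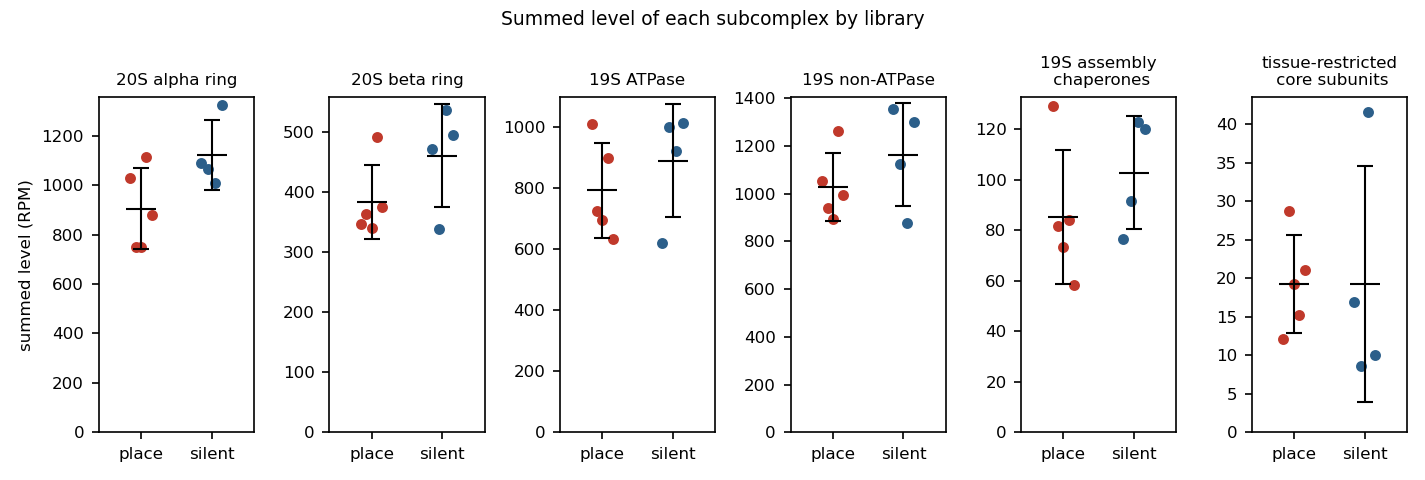
Summed level in RPM of the genes of each subcomplex, 1 point per library, with the group mean (long bar) and SD (whiskers), and each axis starting at 0. In every panel the place (n = 5) and silent (n = 4) points overlap, and the alpha ring has the lowest silent library (1007 RPM) above 3 of the 5 place libraries.

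The alpha ring forms the outer wall of the core and its gated entrance. Its 7 genes summed to 1029, 751, 750, 1114 and 878 RPM in place and 1089, 1063, 1007 and 1325 RPM in silent libraries, that is 905 ± 164 (SD, n = 5) and 1121 ± 140 (SD, n = 4). Place replicates 2, 3 and 5 lay below all silent libraries, and place replicates 1 and 4 did not. The difference was negative in 6 of 7 genes and positive in Psma2, with a median of -0.30 on the log2 scale. None passed the threshold.

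Per kilobase of the gene's principal transcript, the alpha ring genes were at unequal levels. Psma1 (200 RPM per kilobase) and Psma7 (198) were highest, followed by Psma4 (119), whose amino-terminal tail forms part of the gate, Psma6 (84.4) and Psma3 (79.6). Psma5 (43.8) and Psma2 (24.6) were lowest. The ring holds 1 copy of each subunit as protein, which levels of nuclear RNA do not measure. The annotated transcripts of Psma2 (2911 bases) and Psma3 (2846 bases) were longer than those of the other alpha ring genes (914 to 1239 bases), which lowers a level per kilobase. Psma3 had the smallest p of the ring. Its level was 210, 189, 156, 233 and 195 RPM in place and 290, 293, 176 and 297 RPM in silent libraries. Silent replicates 1, 2 and 4 were above all place libraries, and silent replicate 3 lay within the place range. The difference was -0.40 ± 0.26 (log2, SE; limma adjusted p = 0.895).

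Psma5 varied most of the members with reads in every library, from 9.63 RPM in place replicate 3 to 133 RPM in place replicate 1. Its linear means were 55.3 ± 49.9 RPM (SD, n = 5) in the place group and 53.0 ± 38.8 RPM (SD, n = 4) in the silent group, while its log2 difference was -0.28 ± 0.73 (SE), so the direction depended on the scale. A pseudogene column, Psma5-ps, held 2 to 35 reads a library, against 184 to 2442 for Psma5, and reads that match both could have been assigned to either.

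The beta ring carries the proteolytic sites. Psmb5 cleaves after hydrophobic residues and is the target of the drug bortezomib, Psmb6 cleaves after acidic residues and Psmb7 after basic residues, while Psmb1, Psmb2, Psmb3 and Psmb4 have no catalytic site. The ring summed to 384 ± 61.7 RPM (SD, n = 5) in the place group and 461 ± 85.7 RPM (SD, n = 4) in the silent group. The difference was negative in 5 of 7 genes, with a median of -0.11, but it ran from -0.95 in Psmb5 to 1.04 in Psmb7, a wider span than in the alpha ring (-0.48 to 0.21).

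Psmb5 was the one member whose groups did not overlap. Its level was 16.8, 25.4, 27.2, 32.6 and 34.5 RPM in place and 92.8, 35.2, 39.6 and 56.3 RPM in silent libraries. Every place library was below every silent library, but place replicate 5 and silent replicate 2 were separated by less than 1 RPM, and silent replicate 1 was far above the rest. Group means were 27.3 ± 6.98 RPM (SD, n = 5) and 56.0 ± 26.1 RPM (SD, n = 4), a log2 difference of -0.95 ± 0.54 (SE; limma adjusted p = 0.895). One such member is 2.86% of the 35 tested, against 0.615% of all genes tested, and 0 members lay the other way, against 1.22%. Without silent replicate 1 the log2 difference was -0.67, and without silent replicates 1 and 4 and place replicate 3, the libraries that stood apart, it was -0.49.

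Psmb6, another catalytic subunit, was not lower in place. It was at 78.7, 83.7, 60.6, 80.1 and 67.3 RPM in place and 37, 43.4, 76.2 and 40.5 RPM in silent libraries, and silent replicate 3 alone among the silent libraries lay in the place range. The log2 difference was 0.63 ± 0.41 (SE; limma adjusted p = 0.895). Psmb7 was at 10.6, 32.1, 15.5, 26.8 and 8.44 RPM in place and 0, 5.43, 19.3 and 40.1 RPM in silent libraries. The silent libraries held both the lowest and the highest value, and the log2 difference of 1.04 ± 1.1 (SE; limma adjusted p = 0.921) became 0.01 without silent replicate 1, where the gene had no reads. Summed over the 3 catalytic genes, levels were 120 ± 18.7 RPM (SD, n = 5) and 121 ± 25.1 RPM (SD, n = 4).

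Per kilobase, Psmb2 (79.3 RPM per kilobase), Psmb6 (79.0), Psmb3 (73.6), Psmb1 (63.3), Psmb4 (52.3) and Psmb5 (44.5) lay close together and Psmb7 (15.2) was lowest. Exons of Psmb7 overlap those of Nek6 on the other strand. The strand setting of the counting is not given in the sources used here, so the levels of such pairs are uncertain. The same holds for Psma4, Psma5, Psmb8, Psmb9, Psmc3, Psmd3 and Psmd13. On the same strand, exons of Psmb5 overlap Mir686 and those of Psmd1 overlap Gm21972, neither of which has a column here.

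**Figure D3:**
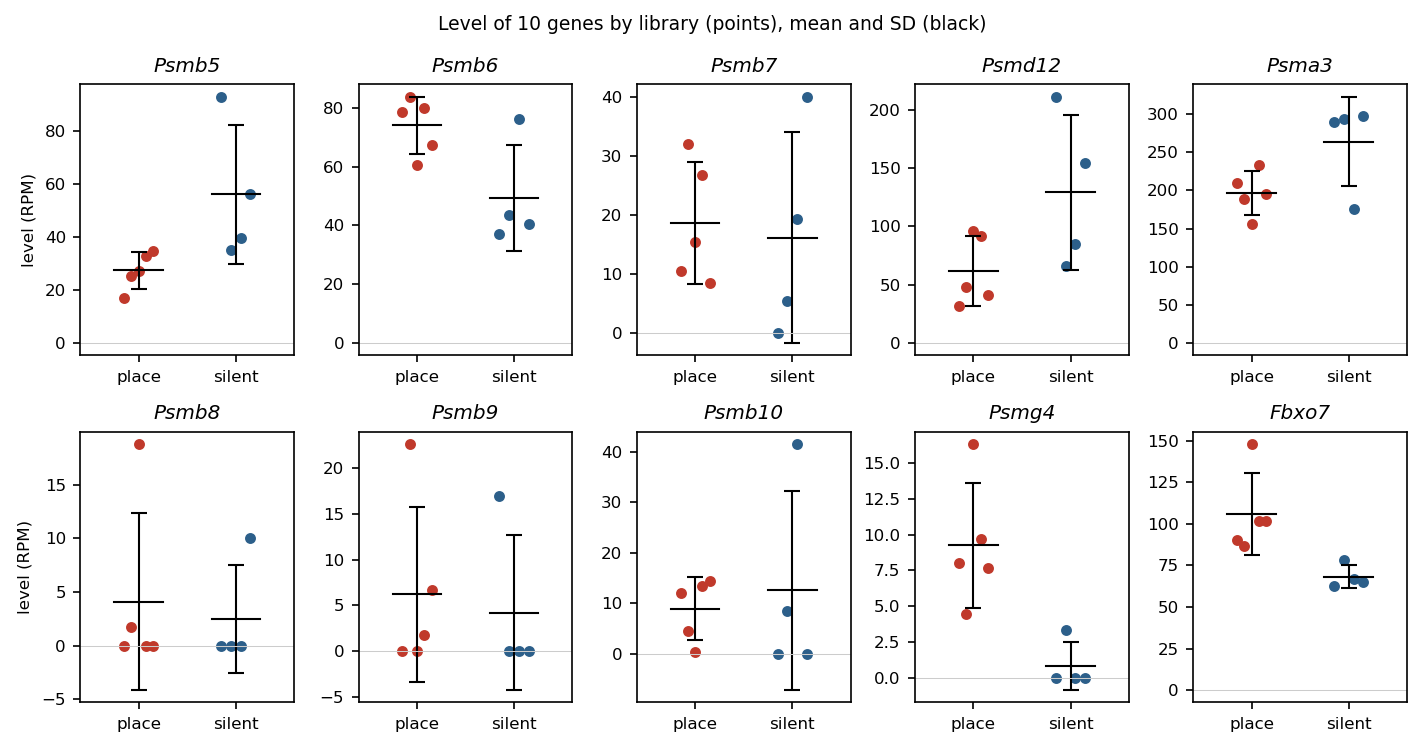
Level in RPM of 10 genes by library, 1 point per library, with the group mean and SD in black and a grey line at 0. Psmb5, Psmg4 and Fbxo7 have groups that do not overlap (Psmb5 lower in place, the other 2 higher), whereas Psmb8, Psmb9 and Psmb10 have most of their signal in 1 to 4 libraries.

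The immune-type subunits Psmb8, Psmb9 and Psmb10 replace Psmb5, Psmb6 and Psmb7 in cells exposed to interferon. They were low and patchy. Psmb8 was at 1.75 RPM in place replicate 2, 18.8 RPM in place replicate 3 and 10 RPM in silent replicate 4, and had no reads in the other 6 libraries. Psmb9 was at 22.6, 1.82 and 6.74 RPM in place replicates 2, 4 and 5 and 16.9 RPM in silent replicate 1, and had no reads elsewhere.

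Psmb10 was at 12, 4.42, 0.314, 13.4 and 14.4 RPM in place and 0, 8.52, 41.6 and 0 RPM in silent libraries. At most 679 reads of Psmb10, 388 of Psmb9 and 360 of Psmb8 were recovered from a library, and each gene had none in some libraries. No library had reads of all 3 genes except place replicate 2. Exons of Psmb9 overlap those of Tap1 on the other strand.

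The 3 immune-type genes made up 10.2%, 16.9%, 15.6%, 9.85% and 16.1% of the reads of the 6 catalytic genes in place and 11.5%, 9.2%, 23.5% and 6.82% in silent libraries, or 13.7 ± 3.43% (SD, n = 5) and 12.8 ± 7.42% (SD, n = 4). The groups overlapped, and silent replicate 3 was highest through Psmb10. The 4 tissue-restricted genes summed to 19.3 ± 6.34 RPM (SD, n = 5) in the place group and 19.3 ± 15.3 RPM (SD, n = 4) in the silent group. Log2 differences of the 2 tested genes were 0.76 ± 1.13 (SE) for Psmb9 and 0.70 ± 1.27 (SE) for Psmb10, the latter with a lower linear mean in place (8.91 RPM) than in silent libraries (12.5 RPM).

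Psmb11, the thymus subunit, had 1, 1 and 2 reads in 3 libraries and none in the rest. Microglial markers, which belong to the brain's resident immune cells, summed to 1.37, 286, 43.5, 18.1 and 218 RPM in place and 33.9, 32.9, 31.2 and 435 RPM in silent libraries, and each of the 7 markers lacked reads in some library. The libraries high in these markers (place replicates 2 and 5 and silent replicate 4) each had reads of at least 1 immune-type gene, as did the other 6 libraries, and these were reads of Psmb8 alone in silent replicate 4. The part of microglial RNA in the immune-type subunits was not tested.

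In the 19S base, 6 ATPases form a ring that unfolds the substrate. They summed to 1010, 726, 694, 897 and 633 RPM in place and 619, 1001, 922 and 1014 RPM in silent libraries. The groups overlapped widely, and silent replicate 1 was lowest of all. Per kilobase the ATPases were the most even group, from 65.6 in Psmc3 to 95.6 RPM per kilobase in Psmc4. The difference was negative in 4 and positive in 2, with a median of -0.10.

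Psmc2 had the smallest p among the ATPases. Its level was 206, 115, 130, 160 and 147 RPM in place and 169, 222, 148 and 219 RPM in silent libraries. Place replicates 2, 3 and 5 were below all silent libraries, and place replicates 1 and 4 were within their range. The log2 difference was -0.33 ± 0.28 (SE; limma adjusted p = 0.905). Psmc4 and Psmc5 showed how single libraries set the spread. Psmc4 was at 26.9 RPM in silent replicate 4 and at 98.2 to 238 RPM in the others. Psmc5 was at 28.2 RPM in silent replicate 1 and at 133 to 182 RPM in the other silent libraries, against 47.2 to 96.9 RPM in place.

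The non-ATPase subunits include the base scaffolds Psmd1 and Psmd2, the ubiquitin receptor Psmd4, and the lid, in which Psmd14 removes the ubiquitin chain. They summed to 1029 ± 143 RPM (SD, n = 5) in the place group and 1163 ± 215 RPM (SD, n = 4) in the silent group. The difference was negative in 6 and positive in 5 of 11 genes, with a median of -0.05. Per kilobase they ran from 23.9 in Psmd8 to 102 RPM per kilobase in Psmd14, the highest of any 19S gene.

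Psmd12, a scaffold subunit of the lid, had the smallest p of all members. It was at 31.6, 48.3, 96.3, 91.8 and 40.7 RPM in place and 211, 65.8, 85.1 and 154 RPM in silent libraries. Silent replicates 1 and 4 were above all place libraries, and the other silent libraries lay within the place range. The log2 difference was -1.04 ± 0.45 (SE; limma adjusted p = 0.893), and it was -0.75 without silent replicate 1 and -0.90 without silent replicate 4.

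Psmd14 was at 286, 88, 152, 151 and 131 RPM in place and 159, 208, 134 and 104 RPM in silent libraries. Place replicate 1 was highest and place replicate 2 lowest, and the log2 difference was 0.03 ± 0.34 (SE; limma adjusted p = 0.993). Psmd4, the member with the smallest variation, was at 73.7, 74.1, 70.2, 98.9 and 79.1 RPM in place and 59.7, 118, 79.1 and 106 RPM in silent libraries. All place libraries lay within the silent range, with a log2 difference of -0.15 ± 0.36 (SE; limma adjusted p = 0.973).

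**Figure D4:**
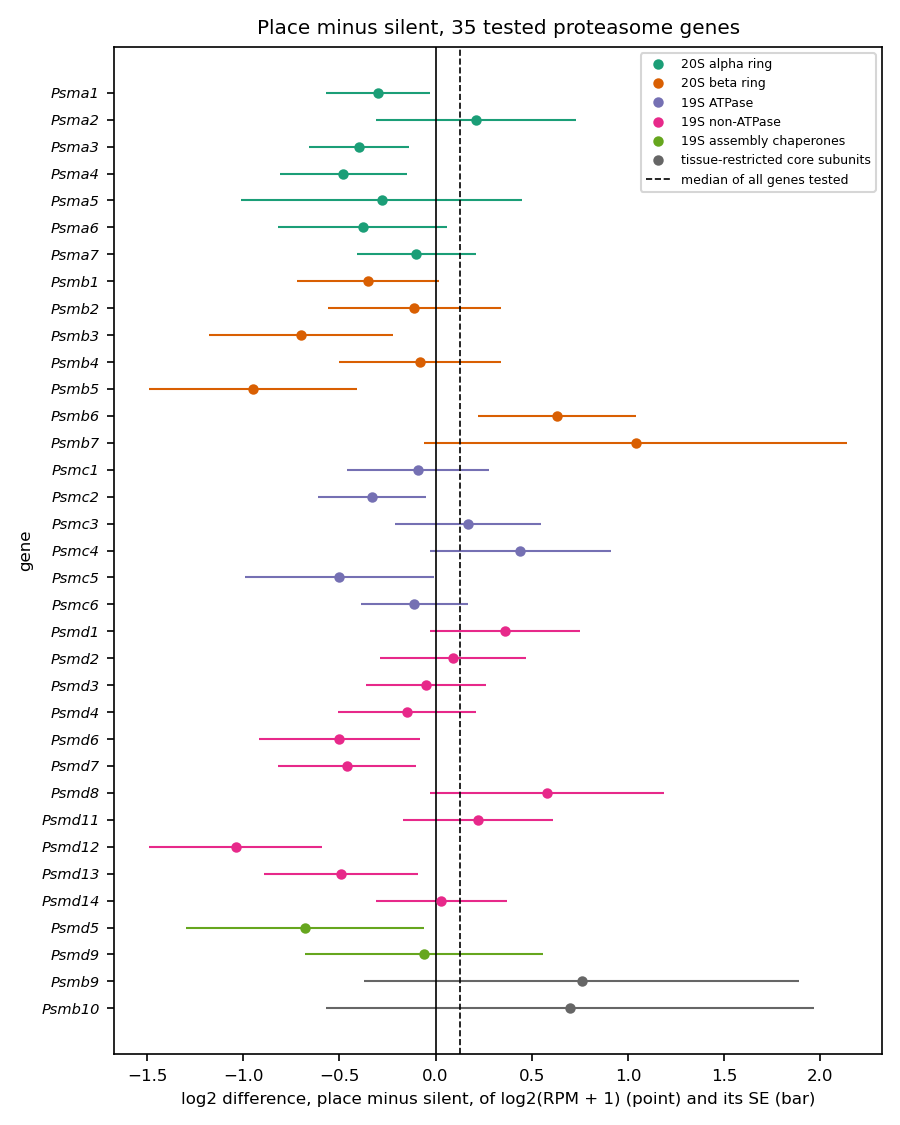
Difference between place and silent libraries (place minus silent) of log2(RPM + 1) for the 35 tested proteasome genes, with points for the estimate, bars for its SE, colours for the subcomplex and a dashed line at the median of all genes tested (0.13). Estimates run from -1.04 (Psmd12) to 1.04 (Psmb7), and 23 of 35 lie left of 0.

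Of the 3 chaperones that help assemble the ATPase ring, Psmd5 and Psmd9 had reads in every library and Psmd10 in 2. Psmd5 was at 35.2, 38.2, 9.16, 39.6 and 49.2 RPM in place and 29.3, 26.9, 74.9 and 95.8 RPM in silent libraries. Silent replicates 3 and 4 were above all place libraries, whereas silent replicates 1 and 2 were below 4 of them. The log2 difference was -0.68 ± 0.62 (SE; limma adjusted p = 0.906), and it was -0.28 without place replicate 3 and -0.36 without silent replicate 4. Psmd9 ranged from 9.02 to 93.4 RPM, both in place libraries, with a log2 difference of -0.06 ± 0.62 (SE). Psmd10 was seen with 69 reads in place replicate 4 and 177 reads in silent replicate 2, and had none elsewhere.

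Subunit genes are known to be induced together by the transcription factor Nfe2l1, which binds antioxidant response elements. The windows below show the core of such an element where it occurs in the promoters of the catalytic genes Psmb5 and Psmb6, whose differences pointed in opposite directions, and of Psmd12. Sequences are from RefSeq (GRCm38.p6), whereas the deposited table was made on GRCm39. They are printed on the gene's strand, and capitals mark the match to TGACNNNGC or, in Psmd12, to its reverse complement.
Psmb5, chr14:54618018-54618058, minus strand, motif 47 bases before the start: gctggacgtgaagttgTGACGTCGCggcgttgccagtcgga
Psmb6, chr11:70525332-70525356, plus strand, motif 9 bases before the start: ggcggactaaagagagTGACGGAGC
Psmd12, chr11:107479278-107479305, plus strand, motif 247 bases before the start: tctGCTGTGTCAcatttgcccccctcag

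Promoters, here 250 bases before to 50 after the start, were matched for 32 of the 38 genes. Psmb1, Psmb2, the catalytic gene Psmb7, Psmc3, Psmd3 and Psmd7 had no promoter sequence available and were not searched. Read on both strands, the core occurred in 5 of these 32 genes (15.6%; the others are Psmc6 and Psmd9) and in 12.4% of 32851 mouse promoters. The CCAAT box, searched on both strands, occurred in 13 of 32 genes (40.6%) and in 37.4% of promoters. A match is a description of the sequence and not a binding site.

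Other genes of the pathway were read from a list of 37 genes, all of which were tested. Of these 0 were called by limma, 2 had an unadjusted p under 0.05 with higher levels in place (5.41%, against 4.14% of all genes tested), and 0 with lower levels. The 2 are Ecpas and Psmg4. Psmg4 passed the filter on low values through the place group, so that share is not read as a result. The difference was positive in 24 of 37 genes (64.9%) and negative in 13, with a median of 0.22, beside 0.13 over all genes. The median was 1.01 for 6 genes listed under core assembly, among them Akirin2, which carries proteasomes into the nucleus. It was 0.26 for 12 enzymes and shuttles that bind the proteasome and 0.30 for 7 further subunits, activators and an inhibitor. It was 0.03 for 8 genes of ubiquitin supply and extraction and -0.60 for 4 genes of transcriptional control. In core assembly the differences ran from -1.54 (Psmg1) to 2.71 (Psmg4), and Psmg1, Psmg3, Psmg4 and Pomp each lacked reads in some library. Psmg4 is also counted in the median of core assembly, in the 24 positive differences and in the median of the 37 genes. None of these is therefore read as a result. In transcriptional control Nfe2l2 (-0.91) had reads in 6 libraries. Its linear mean was higher in place (24.6 RPM) than in silent libraries (14.7 RPM).

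Psmg4, a chaperone of alpha ring assembly, was at 8.03, 4.48, 16.3, 9.69 and 7.69 RPM in place and 0, 3.39, 0 and 0.0447 RPM in silent libraries. All place libraries were above all silent libraries, but 1 silent library alone reached 1 RPM, so the gene passed the filter on low values through the place group, and nothing is read from its separation. Fbxo7 was the other gene of the list with every place library above every silent library. The 2 genes are 5.41% of the list, against 1.22% of all genes tested. That share counts Psmg4, so it is not read as a result. The log2 difference of Psmg4 was 2.71 ± 0.94 (SE; limma adjusted p = 0.893) and depends on the pseudocount, since the silent libraries are near 0. It was 1.27 with a pseudocount of 5 RPM, 5.01 with 0.1 RPM and 6.11 with voom. Pomp, the maturation factor of the core, was at 51.5, 68.4, 74.2, 41.7 and 42 RPM in place and 0, 34.8, 55.4 and 61 RPM in silent libraries. The silent library without reads is replicate 1, and the log2 difference of 1.55 ± 0.94 (SE; limma adjusted p = 0.895) was 0.14 without it.

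Ecpas, which bridges the core and the 19S particle, was at 293, 181, 226, 168 and 207 RPM in place and 133, 142, 197 and 78 RPM in silent libraries. Silent replicate 3 alone reached the place range. The log2 difference was 0.69 ± 0.31 (SE; limma adjusted p = 0.895), and it was 0.44 without silent replicate 4 and 0.31 without silent replicates 1 and 4 and place replicate 3. Fbxo7, an F-box protein that binds the proteasome inhibitor Psmf1, was at 90.2, 86.6, 148, 102 and 102 RPM in place and 62.9, 78, 67.1 and 65 RPM in silent libraries. Its groups did not overlap, and the log2 difference was 0.60 ± 0.34 (SE; limma adjusted p = 0.895).

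The transcription factor Nfe2l1 itself was at 59.5 ± 22.7 RPM (SD, n = 5) in the place group and 42.0 ± 14 RPM (SD, n = 4) in the silent group, with a log2 difference of 0.46 ± 0.49 (SE; limma adjusted p = 0.92). Ddi2, the protease that activates it, and Ngly1, the enzyme that removes its sugars, had log2 differences of -0.40 ± 0.44 and -0.81 ± 0.51 (SE). None of these 3 genes passed the threshold. Akirin2, which carries proteasomes into the nucleus, had a log2 difference of 0.76 ± 0.48 (SE; limma adjusted p = 0.895), with 61.2 ± 16.7 RPM (SD, n = 5) in the place group and 36.6 ± 12.9 RPM (SD, n = 4) in the silent group.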

How the data were processed

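Values are the authors' deposited normalized count signal, with libraries in rows and 31052 genes in columns, and no statement of the scaling in the labels. Per the submitters' processing notes STAR, HTSeq and GRCm39 were used, with no version or role given. In 8873 of 8894 genes with reads in all 9 libraries (99.8%), the deposited signal was whole reads times 1 number per gene, equal within 0.01 (log2) to a trimmed-mean factor computed per gene, with none per library. Dividing by that number gave reads, for all 38 members included, and 94.7% of all reads lie in genes so matched. Other genes carry the factor alone. The trimming was set from these same values, with Ezh2 as the reference, so the match is no independent check of the factor.

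Reads were scaled to a common total per library (RPM), and log2(RPM + 1) was tested with limma 3.58.1 (R 4.3.3, trend in the prior variance, no covariate) over genes with at least 1 RPM in at least 4 libraries. The table was read as normalized values, so no count model was the main test. The script was tested on simulated data. The alternatives were other pseudocounts, filters, scalings and weights, voom, a covariate and left-out libraries. Lengths are of the GENCODE M21 principal transcript.

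The members and lists were chosen with earlier results of these data known. Values in every library are given for the member with the smallest p in each of 6 lists, members whose groups do not overlap, the catalytic subunits and their immune counterparts, Psmd14, Psmd4, and the 4 related genes with the smallest p. Other genes named were chosen after their values were seen. Listed genes without a column (Psma8, Paaf1 and the marker Slco1a4) were not analysed here. Replicate numbers follow accession order and pair no libraries. The sum of the excitatory neuron markers is not reported here.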

Additional observations from a re-analysis of the deposited data

Results flagged for a closer look

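In 46 groups of 4 or 5 libraries examined, 9 had a library separated from the others by more than Dixon's limit. Chance alone flags about 1 group in 20 where values are continuous. That rate does not hold for groups near 0 in all but 1 library, as in Psmb8, Psmb9 and Psmg4. Nothing is therefore read from the number flagged. Among the core genes, Psma3 in silent replicate 3 stood at 176 RPM, with 290 to 297 RPM in the other silent libraries, and Psmb6 in the same library at 76.2 RPM, with 37 to 43.4 RPM in the others. That library also had the highest interneuron marker sum (766 RPM), and the part of that was not tested. The beta ring summed to 492 RPM in place replicate 4 and to 341 to 376 RPM in the other place libraries. All members together summed to 4265 RPM in silent replicate 4 and to 3508 to 3628 RPM in the other silent libraries.

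Among the immune-type subunits, Psmb8 was at 18.8 RPM in place replicate 3 (0 to 1.75 RPM in the others) and at 10 RPM in silent replicate 4 (0 in the others), and Psmb9 at 16.9 RPM in silent replicate 1 (0 in the others). Among related genes, Fbxo7 was at 148 RPM in place replicate 3, with 86.6 to 102 RPM in the other place libraries, and Psmg4 at 3.39 RPM in silent replicate 2, with 0 to 0.0447 RPM in the other silent libraries.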

How the results depend on the processing

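Over 20 alternatives 0 members were called in each, with the smallest adjusted p between 0.641 and 0.997, and 21 to 25 tested members had a negative difference. The median difference of the members was between -0.28 (without silent replicate 1) and -0.08. Over all genes 3 were called with array weights (the sex-linked genes Ddx3y, Eif2s3y and Xist) and 2 without place replicate 1 (Ddx3y and Eif2s3y; 0 to 2 when each library was left out in turn), none of them a member. With genes detected as a covariate, 464 genes were lower and 336 higher in place at an unadjusted p under 0.05, beside 187 and 586 without it. Members at that level numbered 0 to 3. Psmb9 fell below the filter on low values at 5 RPM and without place replicate 2, 4 or 5 or silent replicate 1. The same held without silent replicates 1 and 4 and place replicate 3 together, so Psmb9 has no difference in these settings. Of 294 log2 differences of named genes that could be fitted under the alternatives, 284 kept their direction and 10 reversed, in 3 genes. Psmb10 (0.70) was -0.67 with the covariate, -0.02 without silent replicate 1 or silent replicate 4 (-0.02 to 1.78 when each library was left out in turn) and -0.85 without silent replicates 1 and 4 and place replicate 3. Psmb7 (1.04) was -0.00 with the covariate. Psmd14 (0.03) was -0.21 with array weights, -0.20 without place replicate 1, -0.01 without silent replicate 3, -0.13 without silent replicate 4 (-0.20 to 0.22 in turn) and -0.16 without the 3 libraries together. That last setting was chosen after seeing the data. The cause was not tested. No paired analysis was possible because the labels give no replicate numbers shared between the groups. With 5 against 4 libraries and SEs of 0.26 to 1.27 (log2) for the members given in every library, differences of over 2 SEs, such as that of Psmd12, also stayed short of the adjusted threshold.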
